A study of Rattus norvegicus with 6 samples.

Results

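Genes for structural proteins of peripheral myelin were followed in cultures of NSCPs, the nerve-derived Schwann cell precursors grown from sciatic nerve, and of SKPs, the skin-derived precursors grown from back skin. The set holds 10 genes, namely Mbp, Pmp22, Mag, Mal, Prx, Drp2, Cnp, Cldn19, Tspan2 and Cd9, among 18166 genes measured on the arrays. They were listed by name, and each was read from probe sets annotated with that symbol alone, and where a gene had several the one with the highest 6-array mean was kept. All 10 were found and Mbp was the only one with more than 1 probe set. No filter on low values was applied, so every member entered the test.

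Both groups came from newborn wild-type Sprague-Dawley rats, with 3 independent isolates each and 1 array per isolate. Per the labels' protocols, NSCPs grew attached to laminin and poly-D-lysine in medium with 2% N2, 5 μM forskolin and neuregulin-1β at 25 ng/ml. SKPs formed spheres, seeded at 50000 cells/ml, in medium with 2% B27, EGF at 20 ng/ml and FGF2 at 40 ng/ml. The growth text is a single passage covering both cultures, and B27 was read as belonging to the SKP medium. Organ of origin, medium and growth form change together, so their parts in any difference cannot be told apart. The protocols name no neurons, so no axons to wrap are described for either culture. The values are whole-culture averages, in which fewer cells of a type and less RNA per cell cannot be told apart.

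Schwann cells wrap axons in a spiral of their own membrane, which is the myelin sheath of peripheral nerve. Most of the sheath is compact, with membranes held together by proteins such as myelin basic protein and PMP22, while the inner and outer edges, paranodes and incisures keep cytoplasm and carry adhesion, junction and scaffold proteins such as MAG, claudin-19, CNP and the periaxin complex. Axonal neuregulin and a rise in cAMP switch many myelin genes on in maturing Schwann cells, through the transcription factors SOX10, OCT6 and EGR2. Neuregulin-1β and forskolin, which raises cAMP, are both in the NSCP medium. Their part in the values below was not tested, and the design does not separate it from that of organ or growth form.

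All values are log2 expression values of single arrays, a difference is the NSCP mean minus the SKP mean, and a gene is called higher or lower in NSCPs at an adjusted p under 0.05 in a limma fit across all genes. The fit called 43.7% of the 18166 genes, 25.2% higher and 18.6% lower, so a call alone is common in this comparison. Between 63.8% and 65.8% of genes lay above background (5.50, the 95th percentile of the mean levels of olfactory and vomeronasal receptor genes) on each array, and arrays correlated over genes at 0.984 to 0.993 within a group and 0.872 to 0.888 between groups. The labels were first set against marker genes. Of 15 measured markers of immature Schwann cells and glia 12 were higher and 2 lower in NSCPs. Their mean log2 level lay at 9.45 to 9.52 on NSCP arrays and at 7.02 to 7.32 on SKP arrays. In each culture 14 of these 15 markers had a mean above background. Gfra3 differed by -2.20 and Gap43 by -0.69, the 2 lower markers, picked with their values already known. L1cam, a cell adhesion gene, Erbb3, the neuregulin receptor gene, Cdh19, a cadherin gene, and Dhh, the gene of a hedgehog ligand secreted by Schwann cells, had differences of 4.92, 4.78, 4.53 and 4.43 on the log2 scale. Fibroblast markers were lower in 14 of 15, with list means of 6.89 to 7.20 on NSCP arrays and 11.13 to 11.25 on SKP arrays, led by Lum (-8.91) and Dcn (-8.49), the matrix proteoglycan genes lumican and decorin, and 8 of the 15 had an NSCP mean above background. Leukocyte markers were lower in 13 of 15, with list means of 5.09 to 5.26 on NSCP arrays and 8.64 to 9.48 on SKP arrays, led by Lyz2 (-8.80), a lysozyme gene of macrophages, and Fcer1g (-6.52), an immune receptor subunit gene. Pdgfra (-6.88) and Vcan (-6.55) of the first list and Cd53 (-6.32) and Ptprc (-5.79) of the second came next. Of these 8 genes Vcan alone had an NSCP mean above background. The part of RNA from such other cells in the differences of the myelin genes was not tested.

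The promoters of some members are shown first, because SOX10, EGR2 and TEAD1 are known regulators of myelin genes. RefSeq windows of 300 bases (build GRCr8, 250 before to 50 after an annotated start) were found for all 10 genes, 12 windows in all, since Mbp and Drp2 have more than 1 start. Each window was searched on both strands for the Sox core ACAANG, the Egr core GNGTGGGNG and the Tead core GGAATG, N being any base. No matches of different motifs overlapped in the windows printed, which are those of 4 members with matches and of Tspan2, which has none. Capitals mark the matches, and each sequence runs 5′ to 3′ on the strand of its gene.
Mbp (chr18:78209995-78210294, plus strand): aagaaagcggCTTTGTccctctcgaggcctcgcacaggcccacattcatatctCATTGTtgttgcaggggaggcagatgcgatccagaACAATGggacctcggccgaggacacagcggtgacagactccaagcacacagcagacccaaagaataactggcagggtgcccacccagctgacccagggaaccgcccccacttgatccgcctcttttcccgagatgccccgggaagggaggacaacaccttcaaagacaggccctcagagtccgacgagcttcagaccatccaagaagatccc
Mag (chr1:95290995-95291294, minus strand): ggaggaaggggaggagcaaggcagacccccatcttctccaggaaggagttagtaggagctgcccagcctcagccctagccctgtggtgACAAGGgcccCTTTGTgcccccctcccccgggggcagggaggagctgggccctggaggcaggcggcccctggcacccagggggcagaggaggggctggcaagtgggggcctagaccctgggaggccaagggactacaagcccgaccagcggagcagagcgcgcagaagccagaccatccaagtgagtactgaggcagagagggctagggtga
Prx (chr1:91914171-91914470, plus strand): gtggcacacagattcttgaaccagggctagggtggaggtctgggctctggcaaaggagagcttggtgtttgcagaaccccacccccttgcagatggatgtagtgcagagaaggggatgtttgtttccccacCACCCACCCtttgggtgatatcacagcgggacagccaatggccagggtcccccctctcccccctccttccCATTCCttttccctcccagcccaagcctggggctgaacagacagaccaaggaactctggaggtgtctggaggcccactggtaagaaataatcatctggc
Pmp22 (chr10:48294682-48294981, plus strand): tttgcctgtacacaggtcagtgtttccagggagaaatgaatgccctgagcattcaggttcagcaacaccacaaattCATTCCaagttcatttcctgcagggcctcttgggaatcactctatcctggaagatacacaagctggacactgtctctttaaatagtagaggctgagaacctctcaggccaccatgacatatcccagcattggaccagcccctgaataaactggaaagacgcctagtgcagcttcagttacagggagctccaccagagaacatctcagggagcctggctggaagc
Tspan2 (chr2:192866030-192866329, plus strand): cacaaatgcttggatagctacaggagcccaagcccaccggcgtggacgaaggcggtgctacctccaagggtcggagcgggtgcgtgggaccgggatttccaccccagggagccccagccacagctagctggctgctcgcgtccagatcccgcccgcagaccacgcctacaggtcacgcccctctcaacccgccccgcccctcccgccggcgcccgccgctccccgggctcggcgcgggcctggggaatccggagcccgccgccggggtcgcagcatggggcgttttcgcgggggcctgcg

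The Sox core was found in 3 of the 12 windows, those of Mag, Cnp and the downstream start of Mbp, against 42.1% of 33469 RefSeq windows of the same length. The Egr core was found in 1 of 12, that of Prx, against 12.9% of all windows. The Tead core was found in 3 of 12, those of Pmp22, Prx and the second start of Drp2, against 14.2% of all windows. No match lay in the windows of Mal, Cldn19, Cd9 and Tspan2, so windows with and without matches occurred among the higher members and among the lower ones. Such matches describe the letters only and give no binding.

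Among the 10 genes, 8 were higher and 2 were lower in NSCPs than in SKPs. Of all genes 25.2% were called higher and 18.6% lower, 43.7% in all. The members' differences had a median of 3.11 on the log2 scale, against 0.14 over all genes. A difference of at least 2-fold was seen in 8 members upward and 2 downward, while 7.45% of all genes lay that far up and 10.1% that far down. Cd9, with a difference of 1.04, reached 2-fold only narrowly. In all 10 genes the arrays of the 2 groups did not overlap, against 56.6% of all genes. Below, each gene's 3 NSCP and 3 SKP values stand in the order of replicates 1, 2 and 3, and each SE and interval is that of the fit with 3 arrays per group.

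**Figure D1:**
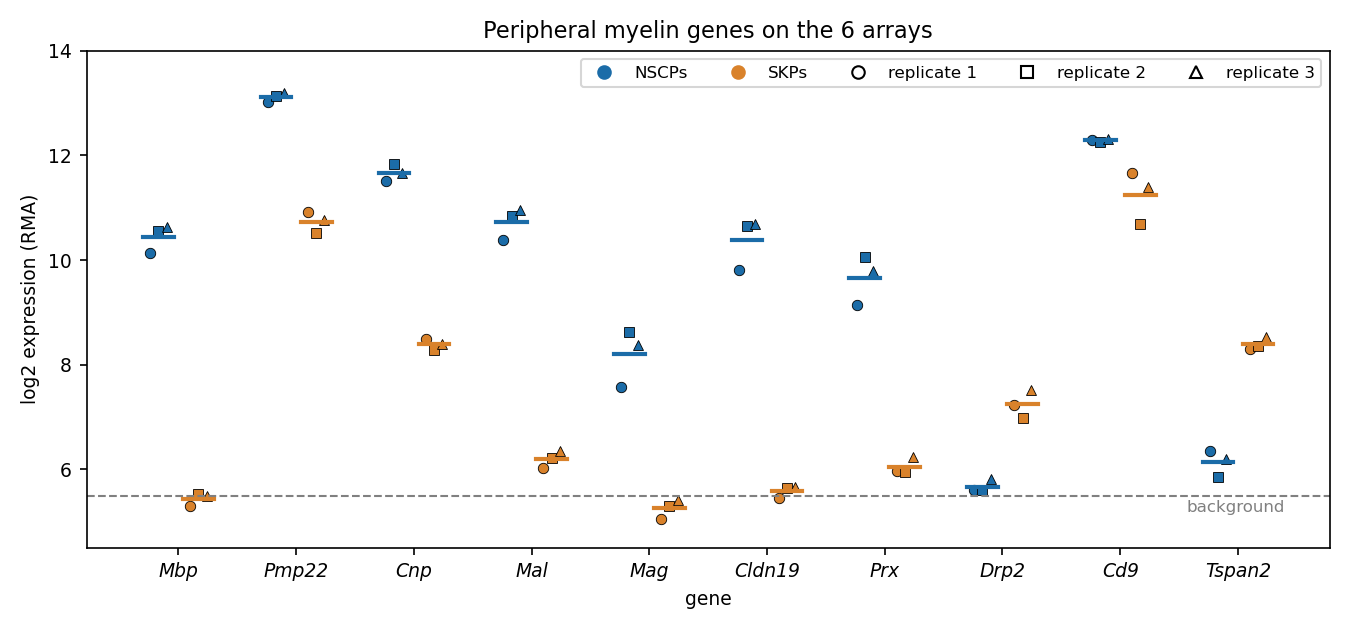
Log2 expression of the 10 genes on each array, NSCPs in blue left of SKPs in orange, with bars at the group means and a dashed line at the background level of 5.50. Mbp, Mag and Cldn19 sit near the dashed line in SKPs and far above it in NSCPs, whereas Drp2 and Tspan2 are the 2 genes whose NSCP points lie below their SKP points.

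Compact myelin genes came first. Mbp, which encodes the basic protein that seals the cytoplasmic faces of the membrane, stood at 10.14, 10.55 and 10.62 in NSCP replicates 1, 2 and 3, against 5.29, 5.52 and 5.49 in SKP replicates 1, 2 and 3. The SKP values lay around the background level of 5.50, and no array of one group came near the other group. The difference was 5.00 (SE 0.16, 95% interval 4.65 to 5.36, adjusted p = 8.22e-08), and 0.0936% of all genes had a difference at least as large. Against a background-level SKP mean, the fitted excess of 32.1-fold rests on a level that is not told apart from background.

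A second Mbp probe set, not kept by the rule, gave another picture. It read 6.32, 6.89 and 6.79 on NSCP arrays and 6.80, 6.64 and 6.53 on SKP arrays, and the groups overlapped. Its difference of 0.02 had a 95% interval of -0.41 to 0.44 (adjusted p = 0.952 over all probe sets). The rule kept the first probe set through its NSCP mean of 10.44, against 6.67 for the second. On SKP arrays the second was the higher, at a mean of 6.65 against 5.43. The Mbp difference of 5.00 is thus that of a probe set kept through the group where it is high. With both probe sets averaged, the Mbp difference came to 2.51. The Mbp locus also gives rise to longer transcripts, known as Golli, from an earlier start; which exons each of the probe sets reads was not analysed here.

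Pmp22, whose tetraspan protein sits in compact myelin and whose gene dosage underlies common inherited neuropathies in humans, was abundant in both cultures. It read 13.03, 13.14 and 13.20 on NSCP arrays and 10.93, 10.51 and 10.76 on SKP arrays. All NSCP values were high and close together, and the SKP values were lower but well above background. The difference was 2.39 (SE 0.14, 95% interval 2.07 to 2.71, adjusted p = 2.56e-06), a 5.23-fold excess in NSCPs. Pmp22 is also known as a growth arrest gene of fibroblasts, under the name Gas-3.

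Of the 6 genes of the PMP22 and EMP family measured, Pmp22 included, 4 were higher and 0 lower in NSCPs, and at an unadjusted p under 0.05 limma gave 0 lower as well. Emp2, an epithelial membrane protein gene, was at 9.83 ± 0.09 in NSCPs, against 6.28 ± 0.59 in SKPs (SD, n = 3 per group), a difference of 3.55 beside the 2.39 of Pmp22. Emp1 differed by 0.73 and Lim2, a lens gene, by 0.47 over an SKP mean within background.

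Mal, which encodes a small proteolipid of glycolipid-rich membrane, was among the members with the widest separation. NSCP arrays read 10.39, 10.83 and 10.96 and SKP arrays 6.03, 6.21 and 6.36. The SKP values lay just above background and the NSCP values several log2 units higher. The difference was 4.53 (SE 0.17, 95% interval 4.13 to 4.92, adjusted p = 2.29e-07), or 23.1-fold, and 0.204% of all genes reached it.

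Among the 14 measured genes of the MAL and CMTM family, Mal included, 5 were higher and 4 lower. Beside Mal, the higher ones with the largest differences were Cmtm5 (3.87) and Pllp (3.16), the plasmolipin gene of myelin membrane. Myadm, a myeloid-associated differentiation gene, differed by -5.93, with 5.58 ± 0.23 in NSCPs, against 11.50 ± 0.19 in SKPs (SD, n = 3 per group). The family held genes at both ends, with a median of 0.02 for the whole list.

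Genes of non-compact myelin followed. Cnp, which encodes a cyclic nucleotide phosphodiesterase that binds the cytoskeleton of myelin's cytoplasmic channels, read 11.50, 11.83 and 11.66 on NSCP arrays and 8.49, 8.27 and 8.39 on SKP arrays. It was clearly above background in both cultures and the replicates were tight. The difference was 3.28 (SE 0.13, 95% interval 2.98 to 3.58, adjusted p = 3.04e-07), a 9.71-fold excess in NSCPs.

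Mag encodes a sialic acid binding adhesion protein of the membrane that faces the axon. Its NSCP values were 7.58, 8.63 and 8.38, against 5.05, 5.30 and 5.42 on SKP arrays. The NSCP arrays spread more widely than for any other member, with replicate 1 the lowest, and the SKP arrays were all within background. The difference was 2.94 (SE 0.25, 95% interval 2.36 to 3.52, adjusted p = 2.84e-05). Its 7.67-fold excess is set against a background-level SKP mean as well.

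Cldn19, which encodes the tight junction protein that seals the Schwann cell's inner and outer mesaxons, read 9.80, 10.65 and 10.69 on NSCP arrays and 5.46, 5.64 and 5.67 on SKP arrays. Replicate 1 was again the lowest NSCP array. The difference was 4.79 (SE 0.23, 95% interval 4.27 to 5.32, adjusted p = 8.39e-07), at 27.7-fold over an SKP mean 0.09 above the background level.

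The claudin family was mixed. Of 21 measured claudin genes, Cldn19 included, 5 were higher, 3 lower and 13 not called. The share called, 38.1%, was near the 43.7% of all genes. Cldn11, known as a tight junction claudin of oligodendrocyte myelin, was 5.7-fold higher with 8.47 ± 0.19 in NSCPs, against 5.96 ± 0.11 in SKPs (SD, n = 3 per group). Cldn1, a claudin of epidermis and perineurium, differed by -5.41 and stood at 5.40 in NSCPs, against 10.81 in SKPs, its NSCP mean within background. Cldn10 differed by -2.62, its NSCP mean within background as well.

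**Figure D2:**
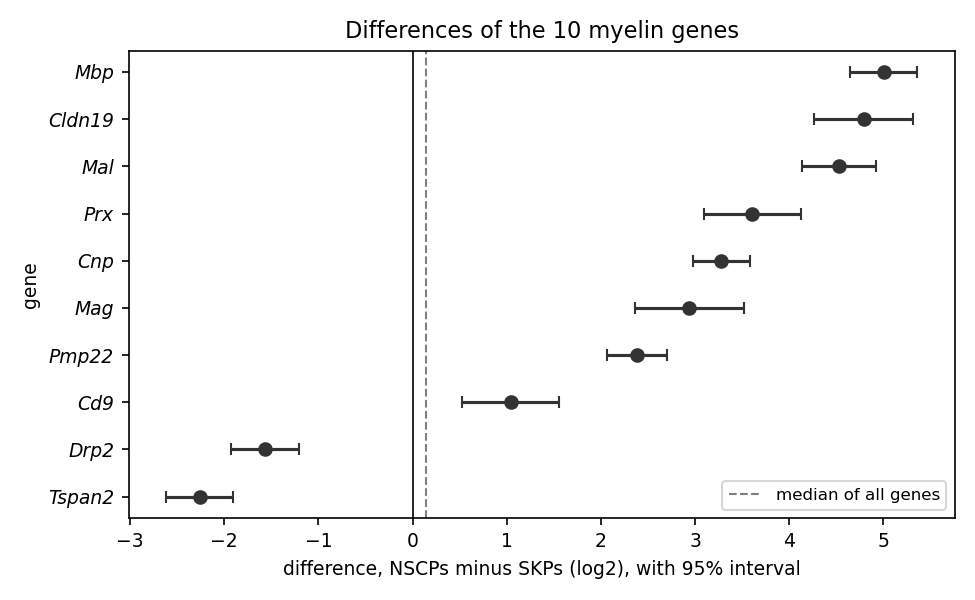
Differences of the 10 genes on the log2 scale, NSCPs minus SKPs, with the 95% interval of the fit and a dashed line at the median of all genes (0.14). Mbp, Cldn19 and Mal lie at 4.53 to 5.00 with overlapping intervals, and Drp2 and Tspan2 lie at -1.57 and -2.26 with intervals that do not reach 0.

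The periaxin complex split between its 2 members. Prx encodes periaxin, the scaffold that links the Schwann cell cytoskeleton to the dystroglycan complex through dystrophin-related protein 2, the product of Drp2. Prx read 9.14, 10.05 and 9.79 on NSCP arrays and 5.97, 5.94 and 6.24 on SKP arrays, with replicate 1 the lowest NSCP array. The difference was 3.61 (SE 0.22, 95% interval 3.10 to 4.12, adjusted p = 3.75e-06), which is 12.2-fold over an SKP mean 0.55 above the background level.

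Drp2 went the other way. It read 5.61, 5.60 and 5.81 on NSCP arrays and 7.23, 6.98 and 7.51 on SKP arrays, so every NSCP value was lower than every SKP value. The NSCP mean was 0.18 above the background level, and the SKP mean 1.74 above it. The difference was -1.57 (SE 0.16, 95% interval -1.93 to -1.21, adjusted p = 6.91e-05), and Drp2 lay among the 6.35% of genes with a difference that low or lower.

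Other genes of the dystroglycan complex and its laminin and integrin partners were mixed. Of 18 measured, Prx and Drp2 included, 5 were higher, 6 lower and 7 not called, with a median of -0.06. Itgb4 and Itga6, which encode the laminin receptor integrin alpha-6 beta-4 of myelinating Schwann cells, were 10.7-fold and 4.84-fold higher. Dag1, the dystroglycan gene, and Utrn, the utrophin gene, differed by 1.38 and 1.23, and the sarcoglycan gene Sgcb and the syntrophin gene Sntb2 by -1.27 and -1.09; these 4 were chosen after their values were seen. Dmd, also chosen then, was at 7.23 in NSCPs, against 7.03 in SKPs, a difference of 0.20 that did not pass (adjusted p = 0.62, 95% interval -0.50 to 0.90).

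The 2 tetraspanins also moved apart. Cd9 encodes a tetraspanin of many cell surfaces, Schwann cells among them, and was high in both cultures. It read 12.30, 12.26 and 12.31 on NSCP arrays and 11.66, 10.70 and 11.39 on SKP arrays. The NSCP values were almost identical, while SKP replicate 2 lay well below the other SKP arrays. The difference of 1.04 (SE 0.22, 95% interval 0.53 to 1.56, adjusted p = 0.00559) was the smallest of the 8 higher members, and 7.02% of all genes had one as large.

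The SKP order of Cd9 was shared by 2 other members. Pmp22 and Cnp were also highest in SKP replicate 1 and lowest in replicate 2. The mean of the 15 leukocyte markers on SKP arrays was 9.48, 8.64 and 8.82, again highest in replicate 1 and lowest in replicate 2. That order was not particular to leukocyte markers. The mean of the Schwann cell and glial markers, at 7.32, 7.02 and 7.03, had it too. That of the fibroblast markers, at 11.13, 11.18 and 11.25, did not. The part of any of these in the Cd9, Pmp22 and Cnp values was not tested. On NSCP arrays the leukocyte mean was 5.26, 5.21 and 5.09, and 4 of the 15 markers had an NSCP mean above background, against 14 in SKPs.

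Tspan2, a tetraspanin gene studied mostly in oligodendrocytes, was lower in NSCPs. It read 6.35, 5.84 and 6.21 on NSCP arrays and 8.30, 8.36 and 8.53 on SKP arrays. The gap between the nearest NSCP and SKP values was 1.94. The difference was -2.26 (SE 0.16, 95% interval -2.62 to -1.90, adjusted p = 7.06e-06), a 4.79-fold deficit that 3.78% of all genes reached.

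Among 24 tetraspanin genes, Cd9 and Tspan2 included, 9 were higher, 7 lower and 8 not called. The leukocyte tetraspanin genes Cd53 and Cd37 had the lowest differences, -6.32 and -3.77, with NSCP means within background. Tspan9 differed by -2.30, close to Tspan2, and Tspan17 by 2.54.

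**Figure D3:**
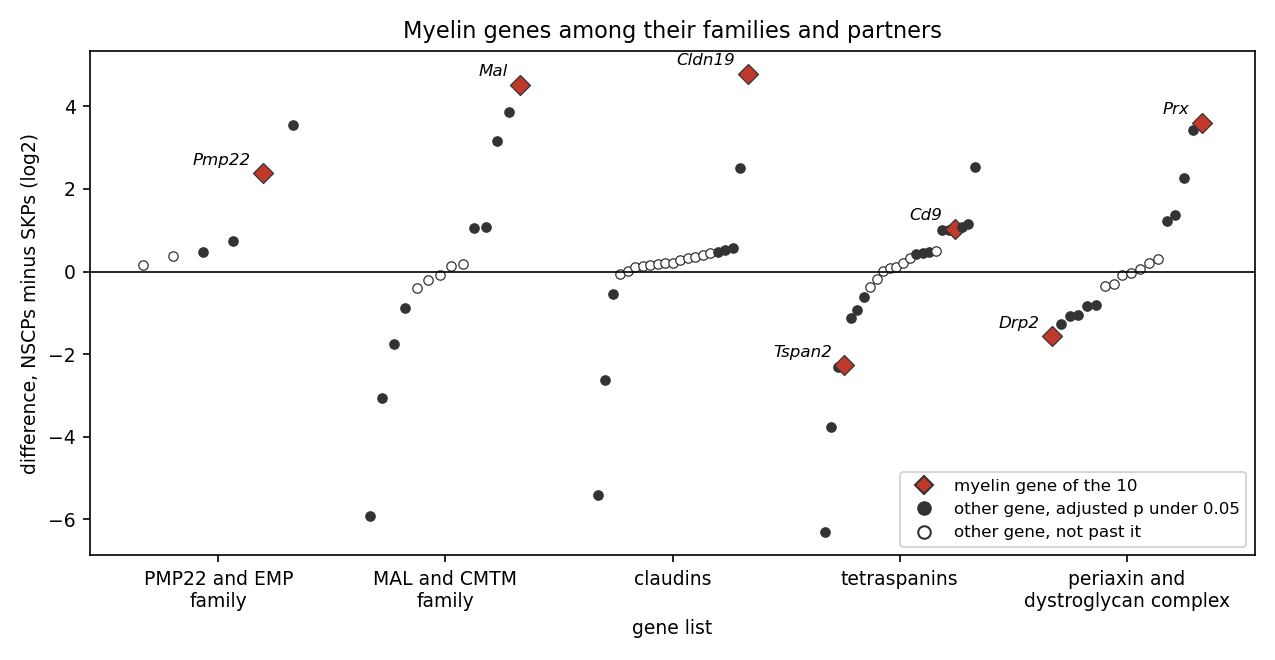
Differences on the log2 scale, NSCPs minus SKPs, of all measured genes in 4 gene families and 1 complex, with myelin genes of the 10 as red diamonds, other genes past the threshold as filled circles and the rest as open circles. Cldn19 and Mal top their families at 4.79 and 4.53, while Tspan2 and Drp2 sit on the lower side of theirs.

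Among the NSCP isolates, replicate 1 gave the lowest value for most of the higher members. In 7 of the 8, all but Cd9, it was the lowest NSCP array, while 38.9% of all genes higher in NSCPs had their lowest NSCP value there. Replicate 1 minus the mean of replicates 2 and 3 had a median of -0.48 over the 8 genes, against -0.03 over all genes higher in NSCPs. The gap was widest for Mag (-0.93), Cldn19 (-0.87) and Prx (-0.78) and small for Pmp22 (-0.14). Tspan2 was highest in replicate 1, by 0.33 over the mean of the others.

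Other values of the same arrays stood as follows. The 11 further myelin membrane genes that were higher in NSCPs had a median of -0.15, and 6 of them were lowest in replicate 1. Negative regulators of myelination that were higher had a median of -0.27, with 5 of 7 lowest there, and receptor genes one of -0.20, with 6 of 10. Activating transcription factor genes had a median of 0.05, with 4 of 12. Differences between these lists were not tested. Sox10, the transcription factor gene of the Schwann lineage, read 10.30, 10.72 and 10.55 in NSCP replicates 1, 2 and 3, in the same order as Mag and Prx. The mean of the Schwann cell and glial markers was 9.48, 9.52 and 9.45, and that of the fibroblast markers 6.89, 7.20 and 7.05. Whether any of these had a part in the spread of the myelin genes was not tested. Without NSCP replicate 1, Mag differed by 3.25, Prx by 3.87 and Cldn19 by 5.08.

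**Figure D4:**
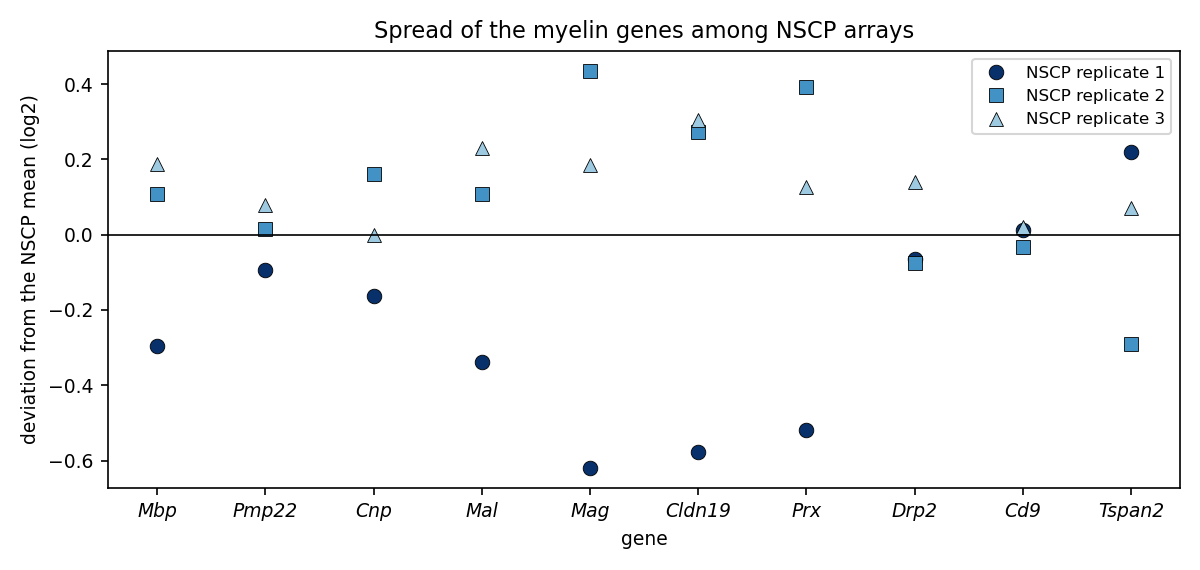
Deviation of each NSCP array from the NSCP mean of a gene, on the log2 scale, for the 10 genes. Replicate 1 (dark circles) is the lowest of the 3 arrays for 7 genes, down to -0.62 for Mag, and the highest for Tspan2.

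Genes around the myelin set were read from lists written from textbook knowledge. Among 14 other genes of myelin membranes 11 were higher and 1 lower, with a median of 2.83. Pmp2, the fatty acid binding protein gene of peripheral myelin, Gjc3, a connexin gene of glia, Cadm4, an axoglial adhesion gene, and Cmtm5 had differences of 7.64, 5.27, 4.87 and 3.87. The SKP means of Pmp2 and Gjc3 were within background.

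Genes of nodes and axoglial junctions had 8 higher and 3 lower among 17. Besides Cadm4 and L1cam, Ank3, the ankyrin-G gene, was 16.1-fold higher, and Cntn1, the contactin gene of paranodal axons, differed by -3.51 with an NSCP mean within background. Junction and polarity genes had 3 higher and 2 lower among 12, where Lin7c (1.69), Ocln (-1.48), Pals1 (1.15) and Patj (-1.13) moved most. The share called there, 41.7%, was near the 43.7% of all genes. Genes mutated in human Charcot-Marie-Tooth disease, Pmp22 and Prx included, had 9 higher and 1 lower among 15. Sh3tc2 (3.23) and Itpr3 (2.70) stood beside Prx, and so did Nefl (5.04), a neurofilament gene also read below as a neuron marker. The NSCP mean of Ocln and the SKP mean of Sh3tc2 were within background.

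Transcription factor and chromatin genes that activate myelin genes had 12 higher and 4 lower among 21, with a median of 0.62. Pou3f1, the OCT6 gene, was at 9.16 ± 0.09 in NSCPs, against 4.79 ± 0.29 in SKPs (SD, n = 3 per group). Rxrg and Sox10 were 15.1-fold and 8.56-fold higher, the SKP means of Pou3f1 and Rxrg being within background, and Nfatc4 differed by -2.32. Egr2, named here after its values were seen, was lower in NSCPs. It read 9.69, 9.99 and 9.65 on NSCP arrays and 11.53, 11.78 and 11.75 on SKP arrays, a difference of -1.91.

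Genes known to hold myelination back had 7 higher and 2 lower among 16. Id4 and Id3, which encode inhibitors of basic helix-loop-helix factors, were 34.2-fold and 7.74-fold higher, Sox2, a gene of immature and repair Schwann cells, was 7.98-fold higher, and the immediate-early gene Egr1 differed by -2.41. Receptor genes for myelination signals had 10 higher and 2 lower among 15. P2rx7, an ATP-gated channel gene, Erbb3 and Ntrk3, the TrkC gene, differed by 5.18, 4.78 and 3.55, and Lrp1, an endocytic receptor gene, by -4.13. The SKP mean of P2rx7 was within background.

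Several myelin genes are shared with oligodendrocytes, the myelinating glia of the central nervous system, so oligodendrocyte markers were read as well. Of 13 markers, Mag included, 7 were higher and 0 lower in NSCPs, with limma at an unadjusted p under 0.05 giving 0 lower too. Their mean lay at 6.41 to 6.67 on NSCP arrays and 5.37 to 5.61 on SKP arrays. Those with the largest differences were Ugt8 (3.82), the galactolipid synthesis gene used by both kinds of myelinating glia, Mag, Ermn (1.75) and Gpr17 (1.40), the SKP means of Mag, Ermn and Gpr17 being within background. The rest of the list, given after its values were seen, was divided. Olig2 and Opalin had NSCP means of 5.34 and 5.23, within background and not called, and Mog differed by 0.21, not past the threshold (adjusted p = 0.25). Nkx2-2, Hapln2 and Aspa were not called either. Olig1, Mobp and Nkx6-2 were called higher, with NSCP means of 6.06, 5.82 and 5.72, above background, and differences of 0.41, 0.48 and 0.46. In all, 9 of the 13 NSCP means and 4 of the 13 SKP means lay above background. The part of any such cells in the values of the myelin genes was not tested.

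Markers of further cell types moved in both directions. Keratinocyte markers had 2 higher and 2 lower among 10, Epcam (0.81, both means within background) and Loricrin (0.69) on the higher side, and Dsg3 (-1.07, its NSCP mean within background) and Perp (-1.06) on the lower. Perineurial and endothelial markers had 1 higher and 3 lower among 9. Cldn1, Slc2a1 (-0.93), a glucose transporter gene, and Esam (-0.67), an endothelial adhesion gene, were lower, and Tek (1.91), an endothelial receptor gene, was higher over an SKP mean within background. Muscle and pericyte markers had 1 higher and 2 lower among 10, with Mcam (3.43), an adhesion gene of vessels, higher, and Cspg4 (-2.89), the NG2 proteoglycan gene, and Rgs5 (-0.91, its NSCP mean within background), a pericyte gene, lower. The shares of the 3 lists, 40%, 44.4% and 30% called, lay near or below that of all genes.

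**Figure D5:**
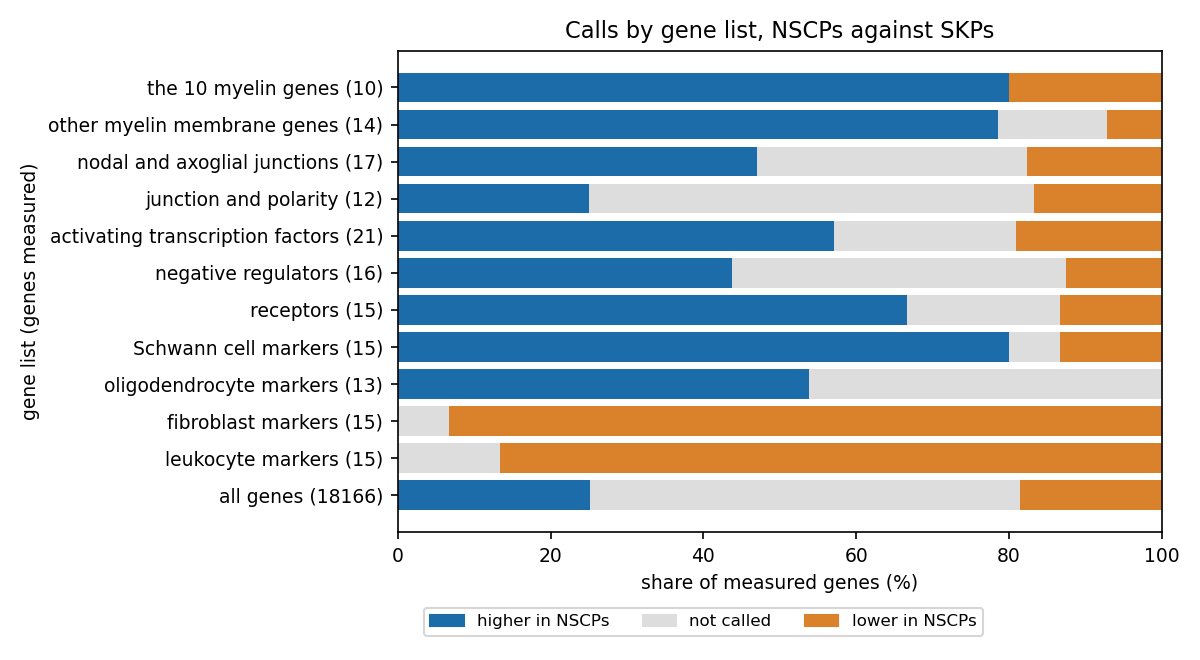
Share of the measured genes in each list that were higher (blue), not called (grey) or lower (orange) in NSCPs, with all 18166 genes in the bottom bar. The 10 myelin genes and the other myelin membrane genes are mostly blue, with 11 of 14 higher in the second list, whereas fibroblast and leukocyte markers are mostly orange.

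Genes whose 6 values most resembled those of Mbp were sought by the root mean square difference after each gene was centred on its own mean. The 5 nearest were Egfl8, Cadm4, the protease gene Tmprss5, Hbegf, which encodes an EGF receptor ligand, and Cldn19, at 0.15 to 0.18 log2 units. Cldn19 was the only other member among them, and the SKP mean of Tmprss5 was within background. For Tspan2 the 5 nearest were Gria3, a glutamate receptor gene, the nuclear receptor gene Rora, Dcbld2, Zc3h12b and Arhgap29, at 0.09 to 0.13 log2 units. With 3 arrays per culture the measure follows the difference between cultures, which was 4.75 to 5.20 for the genes near Mbp and -2.30 to -2.12 for those near Tspan2.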

How the data were processed

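RNA from 3 NSCP and 3 SKP isolates was measured on whole-transcript expression arrays, with cDNA made from 400 ng of total RNA per the labels' protocols. For each array and probe set the authors deposited 1 log2 value, made with the oligo package and RMA per the submitters' processing notes. Versions and probe set build: not given in the sources used here. Quantile normalization, a step of RMA, would hide a shift of all genes in 1 group. Of 36685 probe sets, 18511 had 1 gene symbol, 575 several and 17599 none in the platform's table. By Entrez ID 18394 of the 18511 were matched to RefSeq genes (GRCr8), whose symbols were used.

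Arrays were grouped by title. The deposited values were fitted by lmFit and eBayes of limma (version 3.58.1, under R 4.3.3), 2-sided, over 18166 genes, without further normalization or filtering, and p-values were adjusted by Benjamini-Hochberg over all genes. Background is the 95th percentile, 5.50, of the means of 1344 receptor genes of smell. The number of arrays limits the precision. All 10 members are named. From each of 21 gene lists (with the members, 282 of 310 distinct genes were measured) at most 4 called genes with the largest difference are named, or up to 2 with the highest mean where fewer than 2 were called, and so are the 5 genes most like Mbp and Tspan2. Members and lists were chosen with earlier results of these data known. Replicate numbers were checked for pairing: deviations of same-numbered arrays correlated at 0.03 to 0.05 over genes, so the numbers were not used. Plots used Python 3.11.15 and matplotlib 3.10.9. Alternatives left out each array, blocked on replicate, renormalized or centred arrays, filtered dim genes, averaged probe sets, adjusted over all probe sets, changed the prior, weighted arrays, or took an adjusted p under 0.01.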

Additional observations from a re-analysis of the deposited data

How the results depend on the processing

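Under each of the 16 alternatives run, 8 members were higher and 2 lower in NSCPs. The alternative at an adjusted p under 0.01 is the main fit read at another threshold. In the filter for genes with 3 arrays over background, Mag, Mbp and Cldn19 passed only with NSCP arrays, the group where they are high. The SKP arrays of Mag were all within background, and those of Mbp and Cldn19 were so in part. Their calls under that filter are no separate support. The count of genes called, 7945 of 18166, ran from 5419 (adjusted p under 0.01) to 10426 (array weights), and from 6341 to 7513 with an array left out. The filters for dim genes called 6912 of 11360 and 7339 of 12325 genes. A call was thus more common under these filters and under array weights than in the main fit (43.7%). With the replicate number as a block 7681 genes were called and the Cd9 difference of 1.04 had an adjusted p of 0.00629; every array correlated best with its own number in the other group, but at 0.05 or less, and the block changed no call of a member. Cd9 ranged from 0.77 to 1.25 with an array left out, with adjusted p up to 0.0245, and over all alternatives its adjusted p lay between 0.00105 and 0.0245. The Cd9 difference fell under 2-fold without SKP replicate 2 (0.77), with quantile normalization once more (0.98) and with array weights (0.97). Mbp fell to 2.51 when its probe sets were averaged, since the second one showed a difference of 0.02. Centring arrays on their medians called 5634 genes higher and 3114 lower. A background level from 227 receptor genes with older symbols only, added after seeing the data, put 1 SKP mean of a member within background in place of 2, moving Mbp above it.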

Other observations

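Neuron and melanocyte markers, whose lineages lie close to Schwann cells in the neural crest, were read on the same arrays. Of 12 neuron markers 5 were higher and 2 lower in NSCPs. The neurofilament genes Nefl and Nefm were at 11.73 ± 0.14 in NSCPs, against 6.69 ± 0.56 in SKPs (SD, n = 3 per group) and at 10.67 ± 0.15 in NSCPs, against 6.01 ± 0.85 in SKPs (SD, n = 3 per group), and Tubb3 differed by 2.80. Elavl4, an RNA binding protein gene of neurons, differed by -1.30 with both means within background. The rest of the list is given after its values were seen. Stmn2 (-0.71) was the other lower gene, and Elavl3 (0.42) and Pou4f1 (0.55) were the other higher ones. Rbfox3, Prph, Snap25, Syt1 and Isl1 were not called. Of 8 melanocyte markers 2 were higher and 2 lower. Mitf, the gene of the melanocyte transcription factor, was at 7.80 ± 0.26 in NSCPs, against 10.24 ± 0.17 in SKPs (SD, n = 3 per group), and Tyrp1, Dct and Mlana differed by 1.40, 1.11 and -1.22. The SKP means of Tyrp1 and Dct and the NSCP mean of Mlana were within background.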
